A study of Mus musculus with 16 samples.

Results

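The genes described here are 10 members of the intracellular insulin signalling pathway, chosen by symbol: Irs1, Irs2, Shc1, Grb10, Pik3r1, Pdpk1, Akt1, Akt2, Foxo1 and Foxo3. All 10 were found among the 13430 genes of the deposited table and all 10 passed the filter on low values, which left 12943 genes for testing. RNA came from a slice, 3 mm thick, of mid-kidney from female C57BL/6 mice, 2 to 3 months old, and each of the 16 mice gave 1 library. There were 4 groups of 4 mice: wild type on water, wild type on bicarbonate, IRR(-/-) on water and IRR(-/-) on bicarbonate. The bicarbonate groups had sodium bicarbonate (250 mM, pH 8.5) in their drinking water over 7 days, and every mouse, the water groups included, fasted for 12 h with its drink still available. IRR is the insulin receptor-related receptor, encoded by Insrr, and IRR(-/-) mice are knockouts of it. The labels do not say which part of Insrr is removed or whether the mice were littermates.

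Insulin and the insulin-like growth factors bind receptor tyrosine kinases, which phosphorylate docking proteins such as IRS1 and IRS2. These recruit phosphoinositide 3-kinase, whose lipid product brings PDK1 and AKT to the membrane, and active AKT phosphorylates FOXO factors and so keeps them out of the nucleus. IRR belongs to the same receptor family but is activated by alkaline medium rather than by insulin, and in the kidney it is known from intercalated cells that secrete bicarbonate. Irs2 is itself a known FOXO target, and its transcript is known to rise on fasting and to fall with insulin in liver.

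The values were RPKM, by definition read counts scaled by gene length and library size. Whether the library sizes were adjusted by a further factor was not tested. The gene lengths used are not named, so comparisons of levels between genes rest on lengths that could not be checked. Library depths are unknown, which leaves the counting error of each value unknown too. Insrr, the targeted gene, lay between 4.20 and 6.73 RPKM in the 8 wild-type libraries and between 3.31 and 4.11 RPKM in the 8 knockout libraries. It was lower in the knockout without being absent. Kidney markers were present: all 10 proximal tubule, 6 loop and distal tubule, 7 collecting duct and 5 podocyte markers were in the table. The summed proximal tubule markers of the 16 libraries ran from 3000 to 23961 RPKM, and the lowest was wild-type bicarbonate replicate 3, which stood apart in this way. The 13 mitochondrially encoded genes made up 69.6 to 74.2% of a wild-type library's RPKM sum and 82.6 to 84.9% of a knockout library's. The sums themselves were 1358770 to 1602927 RPKM in wild type and 2415152 to 2927108 RPKM in the knockout. Library medians were closer, at 8.66 to 8.92 RPKM in wild type and 8.44 to 8.78 RPKM in the knockout. The labels name no batch, and any batch shared by 1 genotype cannot be told apart from that genotype.

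Irs2 and Akt1 are the members that passed the test between genotypes on bicarbonate, Akt1 narrowly and not under most alternatives, and Irs1 is the paralog of Irs2, so the 250 bases before their RefSeq starts (GRCm38.p6, all on the minus strand, written 5′ to 3′) are shown. Capitals mark matches to 2 short motifs searched on both strands, the insulin response core TGTTTTG and the forkhead motif TGTTTAC, to which FOXO factors can bind.
Irs2, chr8:11008930-11009179: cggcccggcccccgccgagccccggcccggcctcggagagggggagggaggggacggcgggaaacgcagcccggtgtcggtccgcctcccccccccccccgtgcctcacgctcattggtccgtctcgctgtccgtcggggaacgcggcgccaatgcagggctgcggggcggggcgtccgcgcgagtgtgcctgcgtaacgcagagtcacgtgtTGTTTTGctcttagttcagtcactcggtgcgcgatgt
Irs1, chr1:82291440-82291689: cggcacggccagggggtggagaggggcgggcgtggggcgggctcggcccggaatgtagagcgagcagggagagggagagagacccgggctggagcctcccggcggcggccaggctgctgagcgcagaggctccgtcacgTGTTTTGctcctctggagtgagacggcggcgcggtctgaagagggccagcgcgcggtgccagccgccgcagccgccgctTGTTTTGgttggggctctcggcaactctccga
Akt1, chr12:112674885-112675134: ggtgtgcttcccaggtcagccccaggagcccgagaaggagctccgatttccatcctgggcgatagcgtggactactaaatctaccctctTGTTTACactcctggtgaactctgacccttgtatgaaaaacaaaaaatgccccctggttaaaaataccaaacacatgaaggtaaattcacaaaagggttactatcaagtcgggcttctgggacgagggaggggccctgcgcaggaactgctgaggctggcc
The TGTTTTG of Irs2 begins 37 bases before the start, and the 2 of Irs1 begin 111 and 32 bases before it. The TGTTTAC of Akt1 begins 161 bases before the start, and the window at the other annotated start of Akt1 holds neither motif. The RefSeq table has 18 windows for the 10 genes, 250 bases before to 50 bases after a start, and the 15 besides these 3 hold no match. Of all 32851 windows of that length, 6.28% hold TGTTTTG and 3.65% hold TGTTTAC on either strand. A match is only a run of letters in the window.

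The order of the levels over the 16 libraries put the kinase Akt2 first and the substrate Irs1 last. Akt2, the AKT form tied to glucose handling, had a mean of 35.6 ± 4.33 RPKM (SD, n = 16), and Akt1, the broadly expressed AKT form, had 25.5 ± 3.29 RPKM. Foxo3, a FOXO transcription factor, had 23.3 ± 3.88 RPKM, and Pik3r1, the p85 alpha regulatory subunit of phosphoinositide 3-kinase, had 23.3 ± 2.57 RPKM. Foxo3 was above Pik3r1 in 8 of the 16 libraries, so those 2 could not be ordered.

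Shc1, an adaptor that leads from the receptor to RAS, followed at 17.7 ± 1.60 RPKM and was below Pik3r1 in all 16 libraries. Pdpk1, which encodes the AKT-activating kinase PDK1, had 12.1 ± 0.836 RPKM. Foxo1, the other FOXO factor of the group, had 11.3 ± 0.925 RPKM, and Grb10, an adaptor that dampens receptor signalling, had 10.9 ± 0.885 RPKM. Their ranges overlapped, and Pdpk1 was above Foxo1 in 12 libraries while Foxo1 was above Grb10 in 10.

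The insulin receptor substrates had the lowest means over all libraries, with Irs2 at 8.96 ± 2.75 RPKM and Irs1 at 2.79 ± 0.333 RPKM (SD, n = 16). The place of Irs2 depended on the group: it was below Grb10 in 12 of 16 libraries, and in the knockout on bicarbonate its mean of 12.1 RPKM was above those of Grb10 (10.7 RPKM) and Foxo1 (11.4 RPKM). Irs1 lay under all other members in every library. Irs2 varied the most, with a highest library 2.73 times its lowest, and Foxo3 was next at 2.02 times. The other 8 members had ratios of highest to lowest from 1.25 (Pdpk1) to 1.62 (Akt1). Within a group the coefficient of variation of a member ran from 2.70% (Shc1, knockout on bicarbonate) to 24.2% (Irs2, wild type on water).

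**Figure D1:**
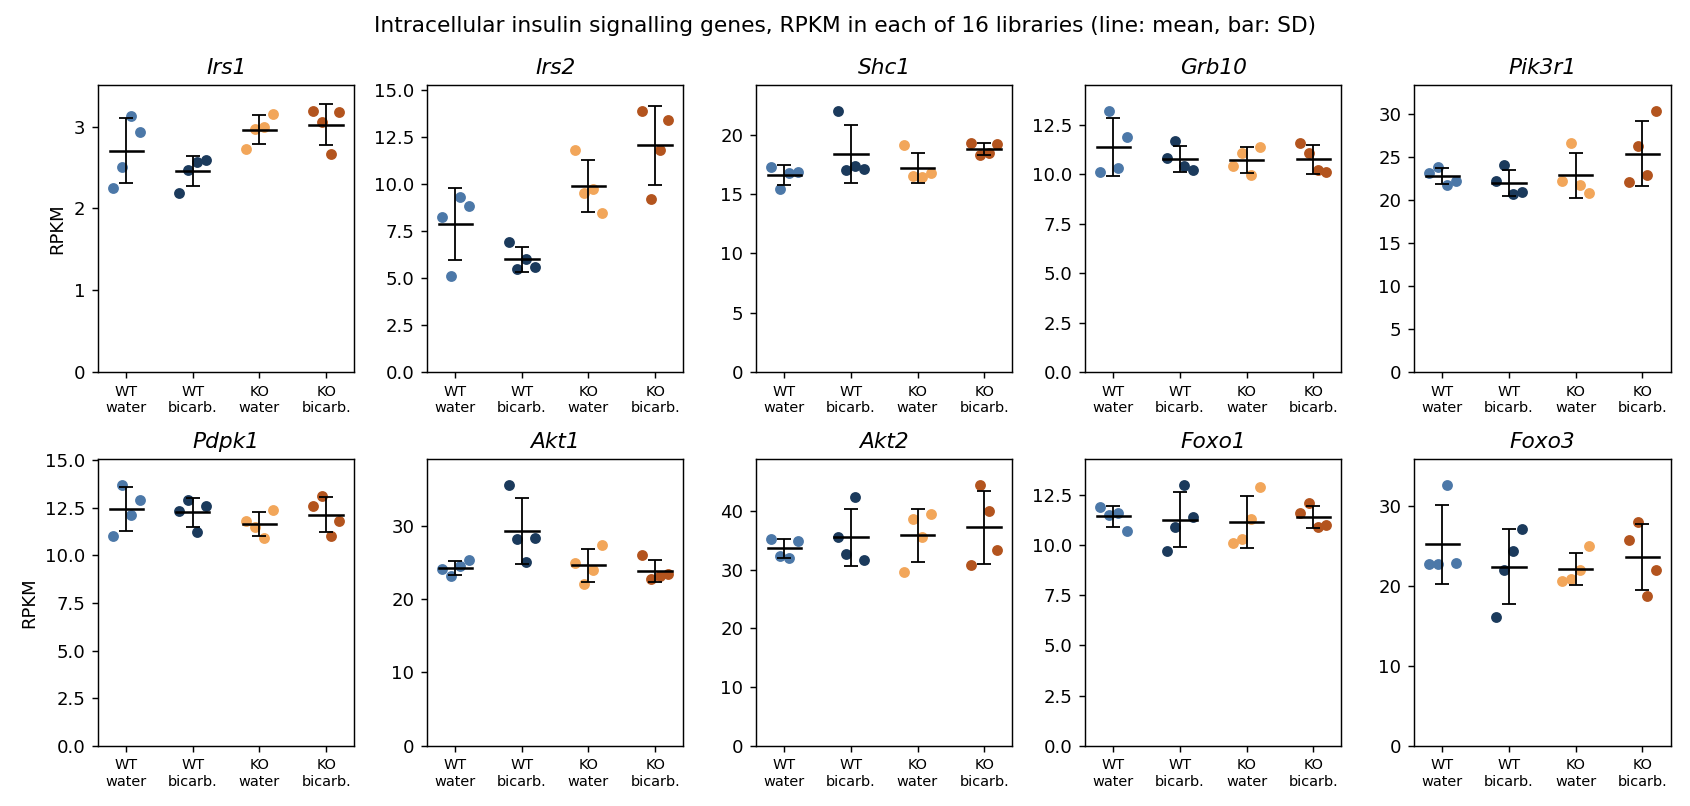
RPKM of the 10 members (linear axes from 0) in each library, by group (WT, wild type; KO, IRR knockout; bicarb., bicarbonate); points are libraries, lines are group means and bars are SD (n = 4). The knockout libraries on bicarbonate stand above those of wild type on bicarbonate for Irs2 (9.21 to 13.9 against 5.48 to 6.94 RPKM), while the groups of most other members overlap.

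Knockout and wild-type mice were first compared on bicarbonate, the condition meant to engage IRR. Irs2, the substrate that couples the insulin receptor to phosphoinositide 3-kinase, was about 2-fold higher in the knockout. Its 4 knockout libraries on bicarbonate had 13.9, 9.21, 11.8 and 13.4 RPKM, and its 4 wild-type libraries had 6.94, 5.48, 6.04 and 5.57 RPKM. Every knockout library was above every wild-type library. The means were 12.1 ± 2.11 and 6.00 ± 0.668 RPKM (SD, n = 4 per group), which is 0.98 ± 0.18 as a log2 difference (SE, limma adjusted p = 0.00149) or 1.98-fold. This log2 difference stayed between 0.91 and 1.11 with each of the 8 libraries left out (adjusted p from 0.00125 to 0.00673) and between 0.86 and 1.01 under the other 9 alternatives.

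Akt1 was the other member past the threshold of 0.05, in the opposite direction. Its wild-type libraries on bicarbonate had 35.6, 28.2, 25.1 and 28.3 RPKM, and its knockout libraries had 26.0, 22.7, 23.2 and 23.4 RPKM. The groups overlapped, and wild-type bicarbonate replicate 1 stood well above the rest. The difference on the log2 scale was -0.29 ± 0.10 (SE, limma adjusted p = 0.0483). The call was lost without wild-type bicarbonate replicate 1 (-0.19, adjusted p = 0.138), replicate 2 (0.0726) or replicate 4 (0.0719), and without knockout bicarbonate replicate 2 (0.114), 3 (0.103) or 4 (0.102). It held without wild-type bicarbonate replicate 3, the library with the lowest summed proximal tubule markers (-0.36, adjusted p = 0.0174). It was also lost under 6 of 9 other alternatives, with adjusted p up to 0.108.

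Irs1 had 3.19, 3.06, 2.66 and 3.18 RPKM in the knockout and 2.19, 2.47, 2.57 and 2.59 RPKM in wild type on bicarbonate. The groups did not overlap, but the log2 difference of 0.29 ± 0.12 (95% interval 0.04 to 0.54) did not pass (limma adjusted p = 0.105). Pik3r1 had a log2 difference of 0.20 ± 0.10 (adjusted p = 0.193). The remaining 6 members, Shc1, Grb10, Pdpk1, Akt2, Foxo1 and Foxo3, had log2 differences from -0.01 to 0.09. Over the 8 members that did not pass, the 95% intervals reached from -0.27 (Foxo3) to 0.54 (Irs1), so larger differences than these lay outside them. In all, 2 of 10 members passed, 1 higher and 1 lower, beside 18.4% of all genes tested (9.03% higher and 9.36% lower). Groups did not overlap for 2 of 10 members, beside 22.8% of all genes. The median log2 difference was 0.05 for the members and -0.02 for all genes.

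Of the marker lists, only the leukocyte sums separated the genotypes on both drinks. The 6 of 8 leukocyte markers in the table summed to 158 to 184 RPKM in the knockout and 126 to 148 RPKM in wild type on bicarbonate, and to 166 to 200 against 97.9 to 146 RPKM on water; the T-cell and B-cell markers Cd3e and Cd79a were not among them. The 5 blood markers (globins and Alas2) did not overlap between the bicarbonate groups, at 234 to 612 RPKM in the knockout and 811 to 1550 RPKM in wild type, and overlapped on water at 373 to 2068 and 501 to 1572 RPKM. The 6 loop and distal tubule markers did not overlap on water, at 1197 to 1330 RPKM in the knockout and 1454 to 1655 RPKM in wild type, and overlapped on bicarbonate at 1298 to 1506 and 1325 to 1669 RPKM. Adipose markers, of which 4 of 6 were in the table, overlapped between the bicarbonate groups at 68.0 to 408 and 101 to 454 RPKM. The 10 proximal tubule markers overlapped on both drinks, with higher mean sums in the knockout. These means were 16083 against 11620 RPKM on water and 12889 against 8717 RPKM on bicarbonate. Podocyte, endothelium, stroma and collecting duct sums overlapped between genotypes on both drinks. The part of cell makeup, or of the mitochondrial share given above, in the Irs2 difference was not tested, and in a bulk slice fewer cells of a type and less RNA per cell cannot be told apart.

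On water, where IRR is not challenged by alkali, no member passed. Irs2 had 11.8, 9.56, 9.77 and 8.45 RPKM in the knockout and 8.26, 5.10, 9.31 and 8.85 RPKM in wild type. The groups overlapped, with wild-type replicate 2 lowest, and the difference on the log2 scale was 0.35 ± 0.18 (SE, 95% interval -0.03 to 0.73, limma adjusted p = 0.181). Without that library it was 0.16 (adjusted p = 0.509). The other 9 members had log2 differences from -0.17 (Foxo3) to 0.14 (Irs1), with adjusted p from 0.457 to 0.994 and 95% intervals from -0.53 to 0.39. Akt1 stood at 24.6 ± 2.21 against 24.3 ± 0.946 RPKM (SD, n = 4 per group), which is 0.01 ± 0.10. as a log2 difference By limma, 0 of 10 members passed, in either direction, and 0 had an unadjusted p under 0.05. Of all genes tested, 21.9% passed (10.1% higher and 11.8% lower) and 34.3% had an unadjusted p under 0.05. No member had groups without overlap, beside 23.8% of all genes.

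Shc1 lies on chromosome 3 at 89418443 to 89430027 (GRCm38, GENCODE M21), 1.60 Mb from Insrr, and Foxo1 lies on the same chromosome 35.44 Mb from it. Neither differed past the threshold, with log2 differences between knockout and wild type of 0.05 and 0.04 for Shc1 and -0.04 and 0.02 for Foxo1 on water and on bicarbonate. Their adjusted p were 0.712 and 0.782 for Shc1 and 0.807 and 0.906 for Foxo1 in the same limma fit.

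**Figure D2:**
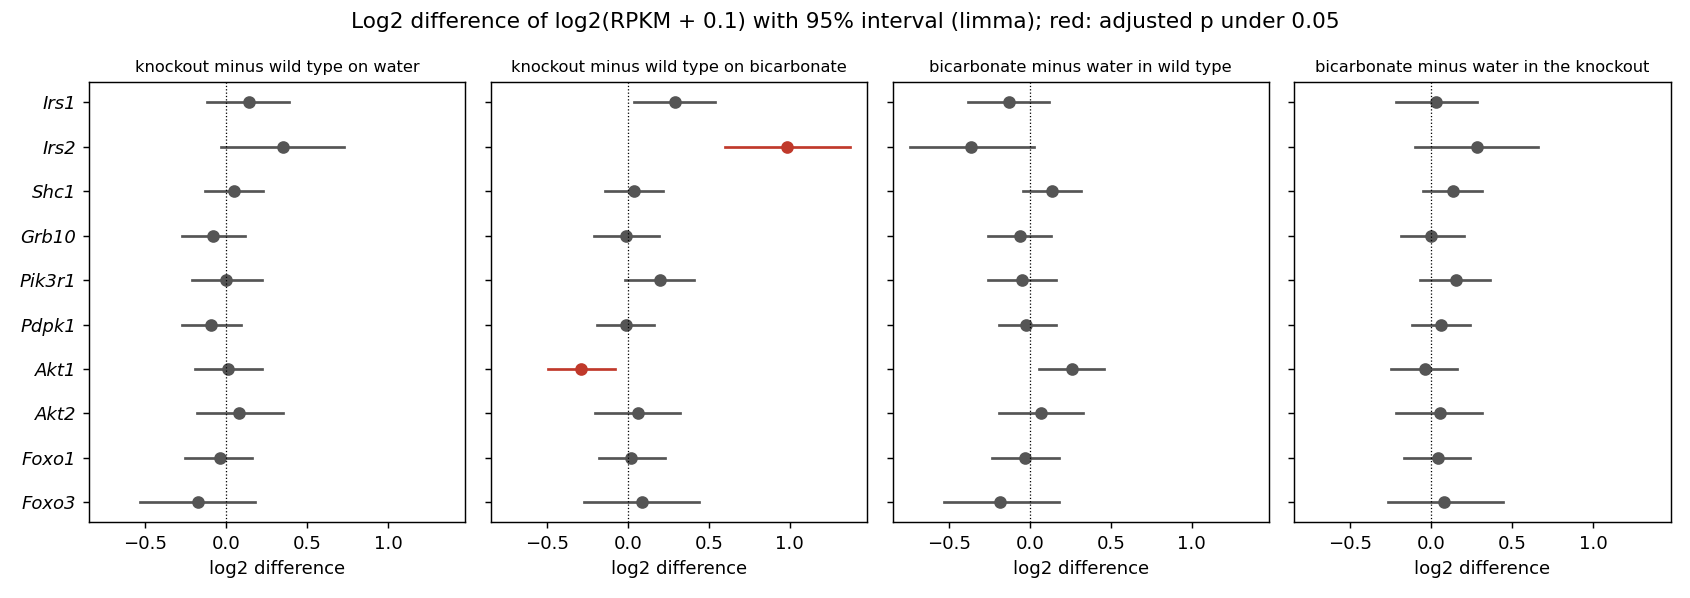
Log2 difference of each member (x axis, log2(RPKM + 0.1) scale) in the 4 comparisons of group pairs; points are limma estimates, bars are 95% intervals and red marks an adjusted p under 0.05. Irs2 at 0.98 and Akt1 at -0.29, both between genotypes on bicarbonate, are the red points.

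The answer to the alkali load was read within each genotype. In wild type, Irs2 went from 7.88 ± 1.90 RPKM on water to 6.00 ± 0.668 RPKM on bicarbonate (SD, n = 4 per group), which is -0.36 ± 0.18 as a log2 difference (SE, limma adjusted p = 0.460). Akt1 went from 24.3 ± 0.946 to 29.3 ± 4.48 RPKM, a log2 difference of 0.26 ± 0.10 (adjusted p = 0.283), and its groups overlapped only in that the lowest bicarbonate library, at 25.1 RPKM, was below the highest water library, at 25.4 RPKM. Foxo3 had a log2 difference of -0.18 ± 0.17, Shc1 0.14 ± 0.08 and Irs1 -0.13 ± 0.12. The other 5 members lay between -0.06 and 0.07. By limma 0 of 10 passed and 1, Akt1, had an unadjusted p under 0.05, beside 0.139% (0.0386% higher) and 12.0% of all genes tested. No member had groups without overlap, beside 5.86% of all genes.

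In the knockout, Irs2 went from 9.89 ± 1.39 RPKM on water to 12.1 ± 2.11 RPKM on bicarbonate (SD, n = 4 per group), which is 0.28 ± 0.18 as a log2 difference (SE, limma adjusted p = 0.743). Pik3r1 had a log2 difference of 0.15 ± 0.10 and Shc1 0.13 ± 0.08, and the other 7 members lay between -0.04 and 0.08. The median over the 10 was 0.05, beside 0.01 for all genes. By limma 0 of 10 passed and 0 had an unadjusted p under 0.05, beside 0.0232% (0.00773% higher) and 7.99% of all genes tested. Groups overlapped for all 10 members, and did not for 5.66% of all genes. Over the 9 members besides Irs2, the 95% intervals ran from -0.27 to 0.44, both ends belonging to Foxo3.

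The interaction is the response of the knockout to bicarbonate minus that of wild type, and it tests whether the genotype differences on the 2 drinks differ. It was 0.63 ± 0.25 for Irs2 (SE, 95% interval 0.09 to 1.17, unadjusted p = 0.0247, limma adjusted p = 0.565). For Akt1 it was -0.30 ± 0.14 (95% interval -0.59 to -0.01, unadjusted p = 0.0410, adjusted p = 0.597). Neither passed over all genes, so the Irs2 and Akt1 differences on bicarbonate were not shown to differ from those on water. The other 8 members had adjusted p from 0.732 to 0.990. By limma 0 of 10 members passed and 2 had an unadjusted p under 0.05, beside 0.0155% and 8.19% of all genes tested.

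Ratios of paralogs within a library do not depend on how libraries were scaled. On water, Irs2 over Irs1 was 2.92 ± 0.671 for wild type and 3.37 ± 0.686 for the knockout (SD, n = 4). With bicarbonate it was 2.47 ± 0.470 for wild type and 4.00 ± 0.669 for the knockout. The bicarbonate libraries ranged from 3.01 to 4.43 in the knockout and 2.15 to 3.17 in wild type, so 1 library of each group overlapped the other. Akt2 over Akt1 was 1.24 ± 0.308 for wild type against 1.58 ± 0.337 for the knockout on bicarbonate, and 1.39 ± 0.0627 against 1.47 ± 0.231 on water. Foxo3 over Foxo1 was close to 2 throughout, with group means from 1.98 to 2.20. These ratios were chosen after the members' values were seen and are given without a test.

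**Figure D3:**
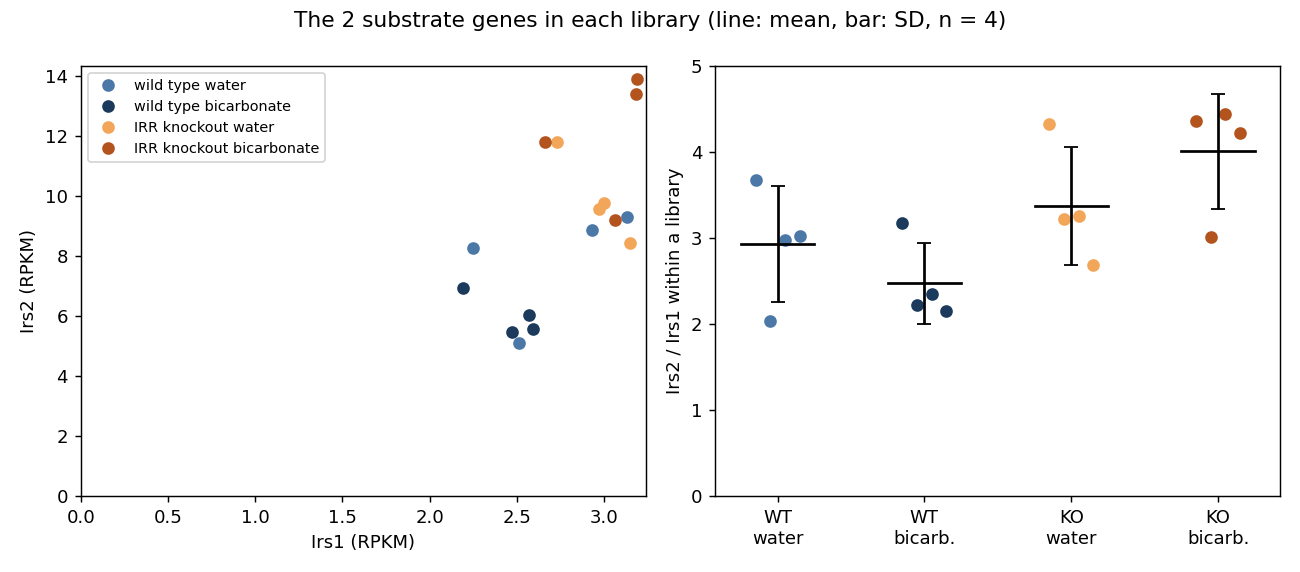
Left, Irs2 against Irs1 (RPKM, linear axes from 0) in the 16 libraries by group; right, the ratio Irs2/Irs1 within each library with the group mean (line) and SD (bar, n = 4). The knockout libraries on bicarbonate have a mean ratio of 4.00 and those of wild type on bicarbonate 2.47, with overlapping ranges.

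Among the receptors above these genes, the insulin receptor Insr had 18.4 ± 0.468 RPKM in the knockout and 14.2 ± 1.53 RPKM in wild type on bicarbonate (SD, n = 4 per group), which is 0.38 ± 0.09 as a log2 difference (SE, limma adjusted p = 0.00695; 0.29 and adjusted p = 0.0880 with the length and GC trend removed). Igf1r, the type 1 IGF receptor, had 31.4 ± 1.48 and 26.0 ± 3.35 RPKM, a log2 difference of 0.28 ± 0.09 (adjusted p = 0.0406). That call was lost without any 1 of these 8 libraries except wild-type bicarbonate replicate 3 (adjusted p up to 0.122). It was also lost under 3 of 9 other alternatives. These were the length and GC trend removed (0.20, adjusted p = 0.353), the plain variance (0.0516) and only the groups compared (0.0820). On water neither passed, with log2 differences of 0.23 ± 0.09 for Insr (adjusted p = 0.0679) and 0.19 ± 0.09 for Igf1r (adjusted p = 0.142).

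The rest of the pathway was read from 6 lists of 102 genes, of which 95 were in the table and 93 were tested: adaptors and substrates, phosphoinositide 3-kinase subunits, phosphatases and other brakes, kinases and targets beside and below AKT, the RAS and MAP kinase branch, and FOXO factors with FOXO target genes. Between genotypes 22 of 93 passed on water (23.7%, 11 higher and 11 lower) and 20 on bicarbonate (21.5%, 12 higher and 8 lower), beside 21.9% and 18.4% of all genes tested. Both shares were near the background. For bicarbonate against water, 0 of 93 passed in either genotype by limma, with 7 of them at an unadjusted p under 0.05 for wild type and 6 for the knockout, beside 12.0% and 7.99% of all genes. The comparisons of genotypes on the 2 drinks share no library, and 12 of these genes passed in both with the same sign, 54.5% of those on water and 60.0% of those on bicarbonate. Over all genes, 1546 passed in both, 54.6% and 64.9%.

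Among the brakes, Inppl1, which encodes the lipid phosphatase SHIP2, was higher in the knockout, at 16.8 ± 0.842 against 11.9 ± 0.605 RPKM on bicarbonate (SD, n = 4 each). Its log2 differences were 0.44 on water and 0.49 on bicarbonate (SE 0.07 each, limma adjusted p = 3.30e-04 and 1.93e-04). Ppp2r1a, the scaffold subunit of protein phosphatase 2A, was lower, at 48.2 ± 2.76 against 87.3 ± 9.18 RPKM on bicarbonate, with log2 differences of -0.89 and -0.85 (SE 0.09 each, adjusted p = 5.89e-06 and 1.22e-05). Of the 14 brakes tested, 4 passed on water (28.6%, 1 higher and 3 lower) and 3 on bicarbonate (21.4%, 1 higher and 2 lower). The shares of all genes tested were 21.9% and 18.4%.

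Below AKT, Rheb, the small GTPase that activates mTORC1, was lower in the knockout by log2 differences of -0.74 and -0.68 on water and bicarbonate (SE 0.10 each, limma adjusted p = 1.17e-04 and 3.36e-04). Of the 25 genes in that list, 6 passed on water (3 higher, 3 lower) and 4 on bicarbonate (2 higher, 2 lower). Tsc2, whose product restrains RHEB, had the largest positive difference in the list and was named after its values were seen. It was low and scattered, with 4.96 ± 1.84 against 1.61 ± 0.650 RPKM on water (SD, n = 4 per group), which is 1.55 ± 0.41 as a log2 difference (SE, limma adjusted p = 0.0131). On bicarbonate the difference of 1.24 ± 0.41 (adjusted p = 0.0469) lost its call without any 1 of 7 of the 8 libraries compared, the exception being wild-type bicarbonate replicate 2, and under 4 of 8 other alternatives: the replicate block (adjusted p = 0.0658), the length and GC trend removed (0.0712), the plain variance (0.0544) and only the groups compared (0.0627). Among 21 FOXO factors and FOXO target genes, 5 passed on water (23.8%, 3 higher and 2 lower) and 4 on bicarbonate (19.0%, all higher). The shares of all genes were 21.9% on water and 18.4% on bicarbonate, so both totals, taken without direction, were near the background. By direction, the 19.0% higher on bicarbonate stood beside 9.03% of all genes, a gap that was not tested. Sesn1 was 1 of the 2 lower on water, at -0.34 (limma adjusted p = 0.0287). Cdkn1b, the cell cycle inhibitor p27, went up by 0.67 and 0.60 (SE 0.09 each, adjusted p = 1.17e-04 and 4.04e-04), and Pink1, a kinase of mitochondrial quality control, by 0.49 and 0.39 (SE 0.09 each, adjusted p = 0.00169 and 0.00909).

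Of 14 genes of the RAS and MAP kinase branch, 4 passed on water (28.6%, 3 higher and 1 lower) and 5 on bicarbonate (35.7%, 4 higher and 1 lower). For the 3 lists here, the share of all genes was 21.9% on water (10.1% higher, 11.8% lower). On bicarbonate it was 18.4% (9.03% higher, 9.36% lower). Among 12 adaptors tested, 2 passed on water (1 higher, 1 lower) and 3 on bicarbonate (1 higher, 2 lower), and Nck1, an SH2 and SH3 adaptor, had log2 differences of -0.63 and -0.79 (SE 0.12 each, limma adjusted p = 0.00133 and 3.12e-04). Of 7 phosphoinositide 3-kinase subunits besides Pik3r1, 1 was lower on each drink (14.3%). These were Pik3cb, the p110 beta catalytic subunit, at -0.28 on water (adjusted p = 0.0385), and Pik3c2a, a class II enzyme, at -0.55 on bicarbonate (adjusted p = 0.0367). Each lost its call without any 1 of 7 of the 8 libraries compared; the exceptions were knockout water replicate 4 for Pik3cb and knockout bicarbonate replicate 2 for Pik3c2a.

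**Figure D4:**
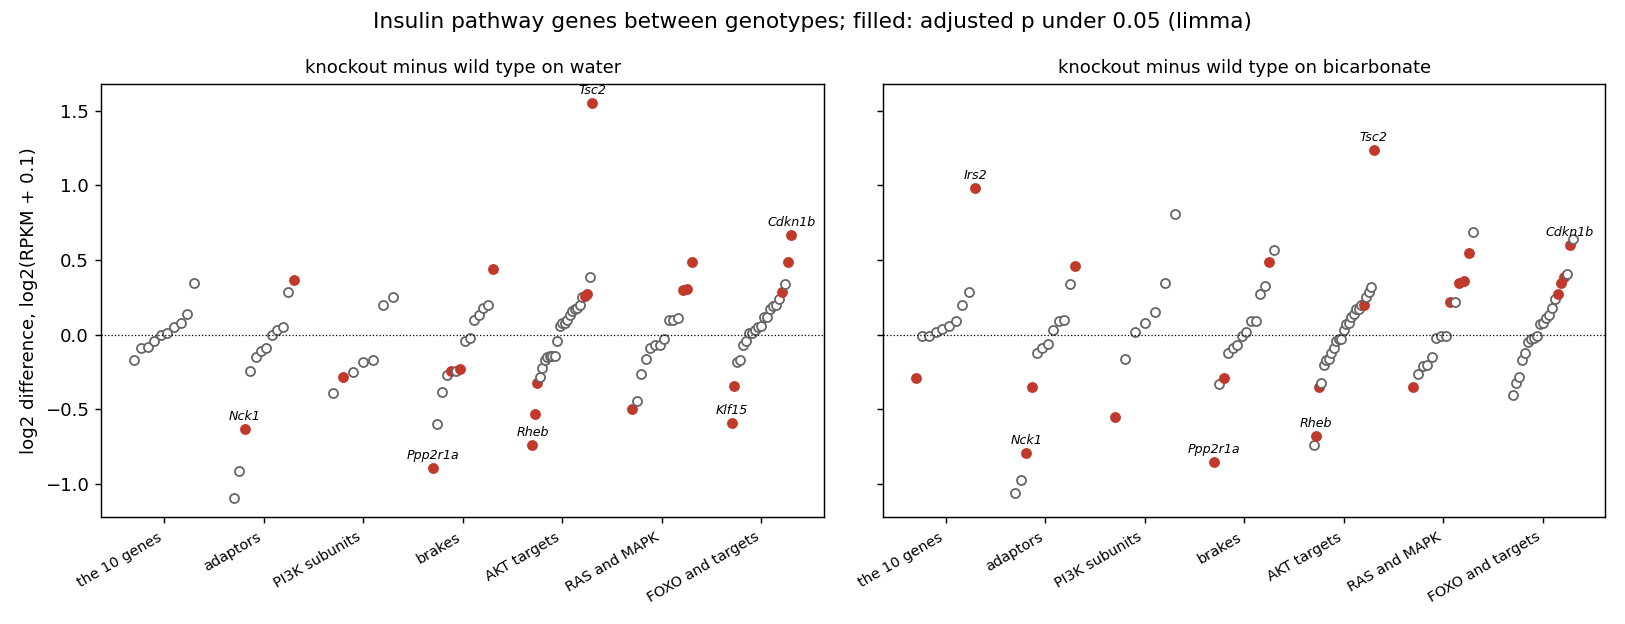
Log2 difference between knockout and wild type (y axis, log2(RPKM + 0.1) scale) of each tested gene of the members and the 6 other pathway lists, on water (left) and on bicarbonate (right); filled points have an adjusted p under 0.05, and the labels mark some of the named genes with large differences. Irs2 is filled on the right at 0.98, and Ppp2r1a is at -0.89 on the left and -0.85 on the right.

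For each member, the gene with the most similar pattern over the 16 libraries was found by Pearson's r of log2(RPKM + 0.1), as a description with no test. For Irs2 it was D630039A03Rik, with r = 0.91 over all libraries and 0.72 after the group means were taken out. For Irs1 it was Jcad (r = 0.91), for Shc1 Nlgn2 (0.92), for Foxo1 Herpud1 (0.91) and for Akt1 Rflnb (0.86). For Pik3r1 it was Lyn (0.81), for Akt2 Rfc5 (0.80) and for Foxo3 Pde4dip (0.83). Pdpk1 was most like Sacm1l (0.84), and Grb10 was most like another member, Pdpk1 (0.79). Each is the highest of 12942 values, over libraries that differ in group and may differ in scaling and depth.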

How the data were processed

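The authors deposited 1 table of RPKM values per gene with 1 column per library; the column names are the sample titles, and 0 columns belong to samples outside the series. Per the submitters' processing notes, Salmon 1.5.2 and edgeR 3.34.0 were used, and the builds GRCm39 and mm10 are named without a role, so the annotation and gene lengths behind the RPKM are not given in the sources used here. Estimates of this kind need not be whole reads, and 539 genes were at exactly 0 in at least 1 library; no member was. Depth is therefore unknown. All 13430 gene IDs matched a symbol in GENCODE M21 (GRCm38). Genes with at least 0.5 RPKM in at least 4 libraries were tested (487 set aside) on the log2(RPKM + 0.1) scale with limma (version 3.58.1, R version 4.3.3), using trended and robust variance, 1 mean per group over all 16 libraries and 12 residual degrees of freedom. Fold changes are on that scale and understate those of low genes. P-values are two-sided, adjusted by Benjamini-Hochberg over all genes of a comparison, with a threshold of 0.05. The procedure was tested on simulated data first. The members and the pathway and marker lists were chosen with earlier results of these data known. The rule for named genes took all 10 members, the receptors and the gene most like each member. It also took up to 3 genes past the threshold with the smallest p per list and comparison. Not all of these are printed with values. Tsc2 was added after its values were seen. Sesn1 was added outside the rule, and its values under the alternatives are not given. The labels give 16 animals, 4 per group. Alternatives changed the pseudocount, filter, scaling, variance model, groups fitted, replicate block, and each library left out. Promoter windows are from RefSeq (GRCm38.p6), which held all 10 members. The values of 1 named pathway gene are not reported here.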

Additional observations from a re-analysis of the deposited data

Results flagged for a closer look

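Each of the 40 combinations of member and group was checked for a library that stands apart from the other 3 by Dixon's ratio, the gap to the nearest library over the range of the group, against its critical value at the 95% level. About 1 in 20 such combinations is marked by chance, and 3 were marked. Foxo3 had 32.6 RPKM in wild-type water replicate 3 (ratio 0.990), and its group's remaining libraries had 22.7 to 22.8 RPKM. Shc1 had 22.0 RPKM in wild-type bicarbonate replicate 1 (ratio 0.924), the library in which Akt1 was also highest, and 19.1 RPKM in knockout water replicate 1 (ratio 0.840).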

How the results depend on the processing

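The count of members past the threshold was 0 under all alternatives run for genotype on water, bicarbonate in wild type, bicarbonate in the knockout and the interaction. For genotype on bicarbonate it was 2, and it was 1, Irs2 alone, with no filter on low values, quantile normalization, median-of-ratios scaling, the length and GC trend removed, the plain variance and only the groups compared, and 1 to 2 with single libraries left out; Akt1 was lost each time. With the length and GC trend removed, its log2 difference was -0.24 (adjusted p = 0.0811). The labels only number the animals, so whether equal numbers mark pairs is unknown. Same-numbered libraries of 2 groups had correlations of their deviations from -0.10 to 0.10 over 24 pairs, and 9 of 24 correlated best with their own number. Such correlations cannot settle whether the animals were paired. With the replicate block, Irs2 on bicarbonate kept 0.98 (adjusted p = 7.06e-04), Akt1 -0.29 (0.0357), and no member's call changed.

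Counts over all genes moved by more than 1.5 times in 2 comparisons. For bicarbonate in wild type, 18 genes became 2 to 34 over the alternatives and 2 to 82 with single libraries left out, with 82 reached without wild-type bicarbonate replicate 4. For the interaction, 2 became 0 to 5.

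Signs turned only for members near 0 that did not pass. With the length and GC trend removed these were Akt1 on water (-0.02); Akt2 (-0.02), Foxo1 (-0.11) and Foxo3 (-0.06) between genotypes on bicarbonate; Pik3r1 (0.03), Foxo1 (0.07) and Pdpk1 (0.05) for bicarbonate in wild type; Akt2 and Grb10 (-0.02 each) in the knockout; and Pdpk1 (-0.02) and Shc1 (0.01) in the interaction. With median-of-ratios scaling Pdpk1 and Grb10 came to 0.00 between genotypes on bicarbonate and Grb10 to -0.01 in the knockout, and with quantile normalization Grb10 came to 0.00 and -0.02 there and Irs1 to -0.04 in the knockout. With single libraries left out, the ranges across 0 were -0.07 to 0.04 (Pik3r1), -0.04 to 0.06 (Akt1) and -0.11 to 0.00 (Foxo1) on water, and -0.03 to 0.15 (Akt2), -0.05 to 0.09 (Foxo1), -0.06 to 0.19 (Foxo3), -0.05 to 0.03 (Pdpk1) and -0.04 to 0.03 (Grb10) on bicarbonate. For bicarbonate in wild type they were -0.02 to 0.12 (Akt2), -0.10 to 0.04 (Foxo1), -0.07 to 0.03 (Pdpk1) and -0.12 to 0.01 (Grb10). In the knockout they were -0.01 to 0.08 (Irs1), -0.09 to 0.01 (Akt1), -0.04 to 0.13 (Akt2), -0.01 to 0.11 (Foxo1), 0.00 to 0.19 (Foxo3) and -0.03 to 0.03 (Grb10), and for the interaction -0.11 to 0.06 (Akt2), -0.01 to 0.14 (Foxo1), -0.01 to 0.12 (Grb10) and -0.04 to 0.08 (Shc1). The cause of these changes was not tested.

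Of the other pathway genes the rule named, 12 of 15 on water and 10 of 16 on bicarbonate kept their call with each library left out. Unknown depth limits what can be said of the lowest genes; Irs1 is the lowest member.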
